A study of Arabidopsis thaliana with 2 samples.

Results

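The regions described here are the 1198 of 8983 regions (13.3%) of a PRR5 ChIP-seq list whose centres lay in the pericentromeres of the 5 Arabidopsis thaliana chromosomes. A region was taken as pericentromeric when its midpoint fell between 11.5 and 17.7 Mb on chromosome 1, 1.1 and 7.2 Mb on chromosome 2, 10.3 and 17.3 Mb on chromosome 3, 1.5 and 6.3 Mb on chromosome 4, or 9 and 16 Mb on chromosome 5. The windows were set by position alone, and no read count or false discovery rate was used to choose them. They cover 31.1 Mb, against 88.0 Mb of chromosome arms with the other 7785 regions, so 26.1% of the sequence held 13.3% of the regions and 7.23% of the 5112270 reads in regions.

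Pericentromeres are the stretches on either side of a centromere. In Arabidopsis they are packed as heterochromatin, carry dense DNA methylation and histone H3 lysine 9 methylation, and are filled with transposable elements and pseudogenes, with expressed genes scattered among them. PRR5 (PSEUDO-RESPONSE REGULATOR 5) is a repressor of the plant circadian clock that acts in the hours around dusk and is recruited to promoters of other clock genes and of clock-controlled genes. The study asked where along the genome it binds.

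The plants were prr5 mutants that carried a transgene for PRR5 with a FLAG and a GFP tag, driven by the PRR5 promoter. There were 2 libraries, 1 of DNA recovered with an anti-GFP antibody (the ChIP) and 1 of input DNA, both from whole plants of this genotype, so the plants of both groups carried the prr5 mutation and had the tagged protein. The growth medium was MS with 0.3% gellan gum and 2% sucrose, the day was split into 12 h of light and 12 h of darkness, and at an age of 18 days plants were taken 10 h into the light. A whole plant mixes all cell types, so a region is an average over them. Neither group had a replicate, so no test was made, and the intervals given are 95% intervals that cover counting error only.

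The annotation of the windows was that of pericentromeres. They held 3383 protein-coding genes (109 per Mb), against 24061 (273 per Mb) on the arms, and 3777 genes annotated as pseudogenes (121 per Mb), against 1066 (12.1 per Mb). The RefSeq gene table has no class of its own for transposon genes, and which of its pseudogenes derive from transposons was not examined here. At the 10 window edges, the regions just inside lay 0.117 to 30.8 kb from the edge and held 42 to 5843 reads (median 151), with 6 at 5% or less by the authors' false discovery rate, their measure of support for a region in the ChIP over the input, which was 5% or less in 64.4% of the whole list. Those just outside lay 0.118 to 30.1 kb away and held 25 to 554 reads (median 83.5), with 7 at 5% or less.

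Regions were sparser in the pericentromeres on every chromosome. The windows held 38.5 regions per Mb (36.4 to 40.8) and the arms 88.4 per Mb (86.5 to 90.4). Chromosome 1 had 41.0 per Mb in its window and 89.2 on its arms, and chromosome 3 had 40.7 and 82.9. On chromosome 5 the values were 40.1 per Mb in the window and 89.1 on the arms. The lowest densities inside were on chromosome 4, with 35.2 per Mb in the window and 85.1 on the arms, and on chromosome 2, with 34.3 and 96.1. The 5 windows lay between 34.3 and 41.0 per Mb and the arms between 82.9 and 96.1, so the ranges did not overlap.

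**Figure D1:**
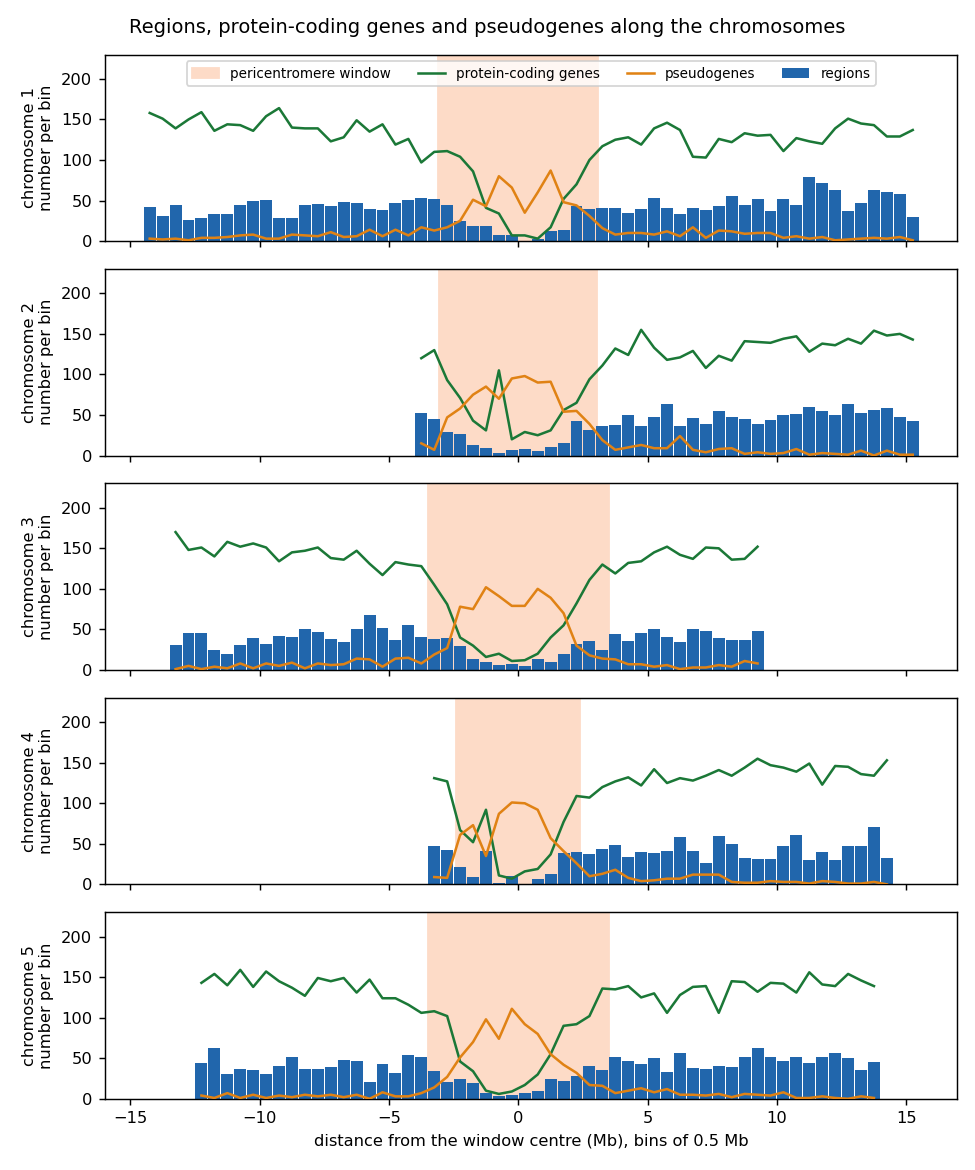
Number of regions (blue bars), protein-coding genes (green line) and pseudogenes (orange line) in bins of 0.5 Mb, plotted by distance from the centre of the pericentromere window (shaded) on each of the 5 chromosomes. Regions and protein-coding genes thin out towards the middle of each shaded window, where pseudogenes peak.

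The fall in density lay in the middle of the windows rather than at their edges. Within 0.5 Mb of a window's centre there were 58 regions (11.6 per Mb) and from 0.5 to 1 Mb there were 59 (11.8 per Mb). From 1 to 2 Mb there were 339 (33.9 per Mb) and farther out, but still inside, 742 (66.8 per Mb). Arm sequence within 1 Mb of a window already had 89.8 regions per Mb, close to the 88.8 per Mb found more than 4 Mb away. Protein-coding genes followed the same order, with 27.0, 54.6, 94.5 and 183 per Mb across these 4 inner zones, and pseudogenes the opposite one, with 171, 165, 134 and 68.1 per Mb. Over the 60 bins of 0.5 Mb that lay wholly inside a window, the number of regions (median 14, at most 45) varied with that of protein-coding genes (Pearson r = 0.79, Spearman rho = 0.80) and inversely with that of pseudogenes (r = -0.77, rho = -0.73). These coefficients describe bins that share a library and lie side by side on the chromosomes, and only 1 of the 60 bins had no region.

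Support for the regions was also lower near the centre, though not in step with distance. The share with a false discovery rate up to 5% was 47.0% more than 2 Mb from the window centre and 42.5% between 1 and 2 Mb. It was 13.6% between 0.5 and 1 Mb and 32.8% in the innermost zone. Median reads in the same order were 107.5, 86, 48 and 72.5, so the innermost zone stood above the one around it in both measures. Its 58 regions were also the longest, with a median of 206 bp, against 172, 160 and 153.5 bp going outwards.

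The longest stretches without a region were far longer in the windows than on the arms. On chromosome 1, 1078 kb passed between the neighbouring regions at 14450087 to 14450718 (122 reads) and 15528550 to 15528702 (28 reads), a stretch with 10 protein-coding genes and 97 pseudogenes. On chromosome 4 the longest gap was 742 kb, with 21 protein-coding genes and 143 pseudogenes. It was 320 kb on chromosome 5, 304 kb on chromosome 2 and 278 kb on chromosome 3, while the longest gap on any arm was 147 kb. The median gap was 8.91 to 15.0 kb in the windows and 5.88 to 6.76 kb on the arms.

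The gap on chromosome 2 differed from the others in its gene content. It held 95 protein-coding genes and 49 pseudogenes, and it falls in the stretch from 3.2 to 3.6 Mb where a copy of much of the mitochondrial genome sits in the nuclear chromosome. That stretch of 101 protein-coding genes and 62 pseudogenes had 2 regions, with 33 and 70 reads and false discovery rates of 20.5% and 25.5%. Of its 101 protein-coding genes, 1 had a region in it or within 1 kb. The share was 22.8% among all protein-coding genes of the windows and 28.0% among those of all 5 chromosomes. Reads of nuclear and mitochondrial DNA cannot be told apart there, and how the authors treated reads with several places is not given in the sources used here.

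Pericentromere regions held fewer reads than arm regions, at about the same length. The median was 94 reads (quartiles 46 and 259, range 17 to 9149) in the pericentromeres and 218 reads (quartiles 78 and 673, range 17 to 26570) on the arms. Median length was 157 bp (quartiles 131 and 209), against 150 bp (128 and 193), so that the median number of reads per bp was 0.511, against 1.22. The small difference in length turned round among regions with a false discovery rate up to 5%, at 146 bp in the pericentromeres and 148 bp on the arms. The lower quartiles differed less than the upper ones. The 300 regions with the most reads were 15 in the pericentromeres and 285 on the arms, while 13.3% of the whole list was pericentromeric.

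The authors' false discovery rate separated the groups in the same direction. It was 5% or less in 520 pericentromere regions (43.4%, 40.6 to 46.3) and in 5268 arm regions (67.7%, 66.6 to 68.7), beside 64.4% of the whole list. The median rate was 8.98% in the pericentromeres and 0.0421% on the arms, and rates above 50% were listed for 224 (18.7%) and 676 regions (8.68%). Ranked by false discovery rate, with ties ordered by reads, the 2245 highest regions of the list included 161 that were pericentromeric, or 13.4% of the pericentromere regions, and 2084 on the arms, or 26.8% of the arm regions.

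**Figure D2:**
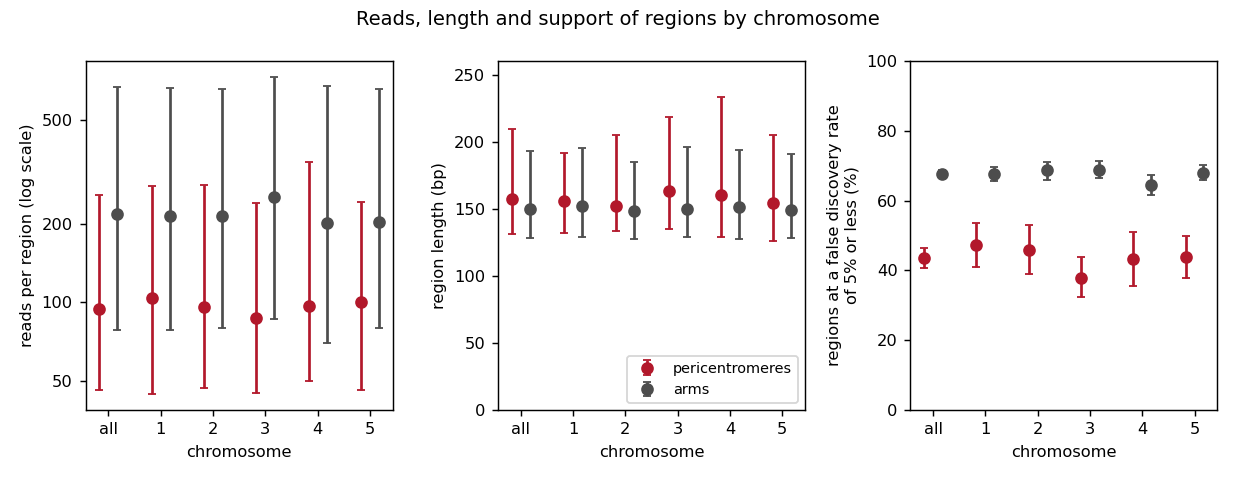
Median reads per region (left, log scale), median region length (middle) and share of regions with a false discovery rate up to 5% (right) in the pericentromeres (red) and on the arms (grey), for all chromosomes together and for each; bars are quartiles on the left and in the middle and exact 95% intervals on the right. On every chromosome the red points lie below the grey ones for reads and support, and slightly above them for length.

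Each chromosome repeated these differences. Median reads in the windows ran from 87 on chromosome 3 to 103.5 on chromosome 1, and on the arms from 202 on chromosome 4 to 253 on chromosome 3. The share at 5% or less ran from 37.9% on chromosome 3 to 47.2% on chromosome 1 inside, and from 64.5% on chromosome 4 to 68.9% on chromosome 3 on the arms. By these values chromosome 3 stood lowest inside its window and highest outside it. For support its intervals, 32.2 to 43.8 inside and 66.3 to 71.3 outside, overlapped those of every other chromosome, so that order lies within counting error. Median lengths were 152 to 163 bp inside and 148 to 152 bp outside. The ranges over the 5 chromosomes did not overlap between windows and arms for reads or support, and for length they met at 152 bp.

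Long regions were about as frequent in the windows as on the arms. Longer than 500 bp were 59 pericentromere regions (4.92%, 3.77 to 6.31) and 381 arm regions (4.89%, 4.43 to 5.40), shares whose intervals overlap. Among regions with a false discovery rate up to 5% the shares were 4.42% and 5.58%, and among the 2245 ranked highest 1.86% and 4.41%. Inside the windows, however, the long ones were 12.1% of the regions within 0.5 Mb of the centre and 8.47% of those from 0.5 to 1 Mb, against 3.64% of those more than 2 Mb out; the first 2 shares rest on 7 and 5 regions. By gene content, the long ones were 4.71% of the pericentromere regions in coding genes, against 7.82% of such regions on the arms.

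In the pericentromeres, protein-coding genes held a larger share of the regions than of the sequence. Protein-coding genes covered 21.8% of the window sequence and held 531 of its 1198 regions (44.3%, 41.5 to 47.2). On the arms they covered 65.5% and held 4105 regions (52.7%, 51.6 to 53.8). Per Mb of coding gene sequence, regions were therefore about as dense in the pericentromeres as on the arms, with 78.4 per Mb (71.9 to 85.4) and 71.1 per Mb (69.0 to 73.3). Counting only regions with a false discovery rate up to 5% gave 40.5 per Mb (35.8 to 45.5), against 48.0 per Mb (46.3 to 49.9), so the order of these densities depended on the threshold. The share of regions in coding genes did so too, and among the 2245 ranked highest it was 58.4% in the pericentromeres, against 47.0% on the arms. Regions in coding genes were the strongest class by reads inside the windows, with a median of 141, yet stayed below the 279 reads of the same class on the arms.

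**Figure D3:**
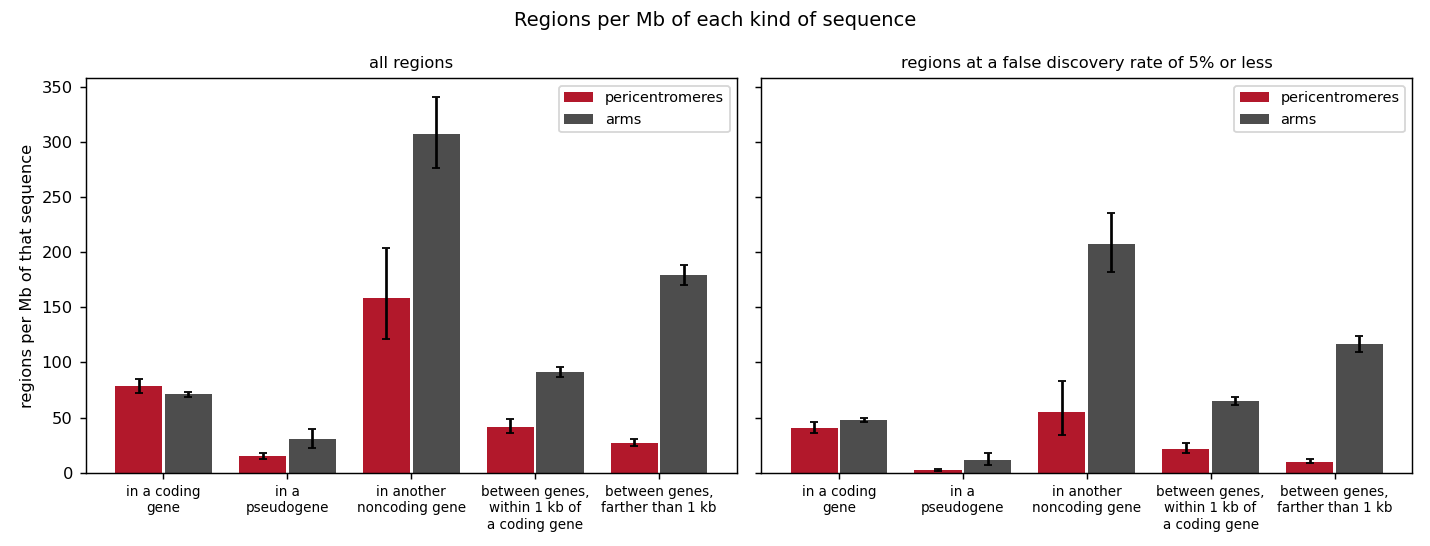
Regions per Mb of sequence of each kind, in the pericentromeres (red) and on the arms (grey), for all regions (left) and for those with a false discovery rate up to 5% (right); bars are densities and whiskers exact 95% Poisson intervals. The bars stand close together for coding genes, and the red bar is lower in every other kind of sequence.

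Outside coding genes the windows were poor in regions. Between genes and within 1 kb of a coding gene there were 171 regions (41.6 per Mb, 35.6 to 48.3), against 1693 on the arms (91.2 per Mb, 86.9 to 95.6). Between genes and farther away there were 309 regions on 11.3 Mb (27.3 per Mb, 24.4 to 30.6), against 1571 on 8.77 Mb (179 per Mb, 170 to 188). Other noncoding genes, mostly long noncoding RNAs, held 61 regions (159 per Mb, 122 to 204), against 361 (307 per Mb, 277 to 341). In each of these 3 kinds of sequence the intervals of windows and arms lay apart.

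Pseudogenes had the fewest regions per Mb of any kind of sequence in the windows. They made up 27.4% of the windows and held 126 of the 1198 regions (10.5%, 8.84 to 12.4), or 14.8 per Mb (12.3 to 17.6), against 55 regions on the arms (0.706% of the arm regions), or 30.3 per Mb (22.8 to 39.4). Of the 126, 21 had a false discovery rate of 5% or less (16.7%, 10.6 to 24.3), against 21 of the 55 on the arms (38.2%). At that rate the density was 2.46 per Mb (1.52 to 3.76), against 11.6 per Mb (7.16 to 17.7). Pericentromere regions in pseudogenes had a median length of 210.5 bp and a median of 76 reads, against 170 bp and 85 reads on the arms. Their median reads stood above the 57 of pericentromere regions between genes and farther than 1 kb from a coding gene. Those regions were shorter, with a median of 145 bp, and held more reads per bp, with medians of 0.356 against 0.297. More of them, 36.9%, had a false discovery rate of 5% or less. Of the 126, 19 (15.1%) were longer than 500 bp, against 3 of the 55 on the arms.

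Counted by gene, a protein-coding gene of the pericentromeres was near a region less often than one of the arms. Of the 3383 genes, 770 contained the centre of a region or had it within 1 kb (22.8%, 21.4 to 24.2), against 6919 of 24061 arm genes (28.8%, 28.2 to 29.3) and 28.0% of all. Pericentromere genes were shorter, with a median of 1714 bp, against 2120 bp, and whether this bears on the count was not tested. By zone the share was 26.2% more than 2 Mb from the window centre, 21.1% from 1 to 2 Mb, 7.69% from 0.5 to 1 Mb (21 of 273 genes) and 13.3% in the innermost zone (18 of 135 genes). Of the 770 genes, 684 had 1 region, 80 had 2, 4 had 3, and 2 genes had more. SFP1 (AT5G27350), of the sugar transporter family, had 4, and AT5G28237 had 5 that held 382 reads together. Among pseudogenes 127 of 3777 had a region centred in them (3.36%, 2.81 to 3.99), against 59 of 1066 on the arms (5.53%, 4.24 to 7.08), and among long noncoding RNA genes 59 of 618 (9.55%), against 400 of 2862 (14.0%).

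More pericentromere regions lay far from any protein-coding gene. With no coding gene within 1 kb there were 454 (37.9%, 35.1 to 40.7), against 1776 on the arms (22.8%, 21.9 to 23.8). That difference was not seen among the 2245 regions ranked highest, at 21.7% in the pericentromeres and 21.6% on the arms, and was small when all annotated genes were counted, at 19.8% and 17.8%. Sequence between genes and farther than 1 kb from a coding gene made up 36.3% of the windows and 9.96% of the arms. It held 25.8% of the pericentromere regions and 20.2% of the arm regions. The class farther than 10 kb held 76 pericentromere regions (6.34%) and 0 of the 7785 arm regions, a share whose exact interval reaches 0.0474%. How much sequence lies that far out was not counted, so the 0 on the arms is not read as a trait of the regions. Of these 76, 12 had a false discovery rate of 5% or less (15.8%), 12 were longer than 500 bp (15.8%) and 3 stood among the 2245 ranked highest. Support fell with distance in the windows, from 48.8% at 5% or less within 1 kb of a gene to 36.9% from 1 to 3 kb and 29.9% from 3 to 10 kb. On the arms those shares were 71.0%, 64.0% and 67.0%.

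A few of the 76 remote regions held many reads, though only 3 stood among the 2245 ranked highest, beside 13.4% of all pericentromere regions. The best ranked of the 76, at rank 134 with 1909 reads on chromosome 1, is given below. The longest region of the windows, 2914 bp on chromosome 5 from 11867840 to 11870754, held 8473 reads (8294 to 8655), the second most of any pericentromere region. It lay 207 kb from the nearest protein-coding gene, AT5G32440, at rank 1978 with a false discovery rate of 1.09e-13%, and its reads were spread at 2.91 per bp. Of them 44.1% (43.0 to 45.1) were forward reads, while the median pericentromere region had 50% (quartiles 46.5 and 53.1) and the median arm region 50% (47.6 and 52.4). The next longest, 1569 bp on chromosome 3 from 13691356 to 13692925, held 2844 reads at 0.0241%, at rank 4130, and lay 162 kb from AT3G32980. On the same chromosome a region of 36 bp from 13593586 to 13593622, at rank 329 and 63.5 kb from that gene, held 2731 reads, or 75.9 per bp. Both long regions held far fewer reads per bp than the short one, with 1.81 for that of chromosome 3, but more than the median region. Further down, at rank 5853, 760 bp on chromosome 4 from 3626411 to 3627171 held 514 reads at 5.64%, 36.5 kb from AT4G06598. Whether the reads of these remote regions have other places in the genome was not tested.

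The pericentromere regions ranked highest, in contrast, were narrow and mostly at genes. Of the 100 ranked highest, 82 had a protein-coding gene within 1 kb and 18 had none. Of all 1198 pericentromere regions, 454 (37.9%) had none. Among regions ranked highest in the whole list, 21.7% of 161 in the pericentromeres and 21.6% of 2084 on the arms had none. The shares were thus alike at high rank, while over all arm regions it was 22.8%. The sequence differed too, since 36.3% of the windows and 9.96% of the arms lay between genes and farther than 1 kb from a coding gene. The 100 pericentromere regions richest in reads took 53.0% of the reads of all pericentromere regions. The 12 ranked highest and the 12 with the most reads were 18 regions, of which 10 were centred in a coding gene and 15 had one within 1 kb. They are given below by what the genes do; where a region was near more than 1 gene, the assay does not tell which of them it acts on.

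Genes of nitrogen use were at 3 of the 18 or were the nearest to them. NIA2 (AT1G37130), the main nitrate reductase gene, contained the region with the most reads in the pericentromeres, 9149 reads (8962 to 9338) on chromosome 1 from 14160471 to 14160642, at rank 293. A region 3.47 kb from NIA2, from 14165335 to 14165472, held 2395 reads and ranked higher, at 69, with 54.6% forward reads (52.6 to 56.6). AGL44 (AT2G14210, also ANR1), a MADS-box factor of the root response to nitrate, had the pericentromere region with the best rank, 48, and a false discovery rate of 9.04e-192%. That region lay 227 bp from the gene on chromosome 2 from 6018256 to 6018406 and held 3764 reads (3645 to 3886).

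Hormone genes formed a second set. DFL2 (AT4G03400), a GH3-family gene of hypocotyl growth in the light, contained a region of 5843 reads (5694 to 5995) at rank 55 on chromosome 4 from 1500036 to 1500197, only 0.117 kb inside the window. LOX2 (AT3G45140), the chloroplast lipoxygenase of jasmonate synthesis, contained 4617 reads (4485 to 4752) in 98 bp on chromosome 3 from 16525298 to 16525396, at rank 123. MYC2 (AT1G32640), the bHLH factor that mediates much of the jasmonate response, had 3684 reads on chromosome 1 from 11800030 to 11800255 at rank 1048, in a region centred in both MYC2 and AT1G32630. AFP3 (AT3G29575), of the family that binds the abscisic acid factor ABI5, had 1993 reads at rank 166 on chromosome 3 from 11384105 to 11384241. At similar read counts the regions of MYC2 and AGL44 thus stood at ranks 1048 and 48, so reads and false discovery rate order the regions differently.

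Regulators of transcription followed. LUX (AT3G46640, listed as PCL1), the MYB factor of the evening complex of the clock, had 3252 reads at rank 255 on chromosome 3 from 17182726 to 17182877, also near AT3G46630. TPR3 (AT5G27030), a corepressor of the TOPLESS family, which PRR proteins are known to bind, had 1607 reads at rank 221 on chromosome 5 from 9515616 to 9515747, centred in the long noncoding RNA AT5G04345.

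Carbon metabolism and ubiquitin genes made up most of the rest. GBSS1 (AT1G32900), the granule-bound starch synthase that makes amylose, had 4985 reads (4848 to 5125) beside it at rank 158 on chromosome 1 from 11923946 to 11924077. RBCS1B (AT5G38430), a small subunit gene of Rubisco, had 4964 reads at rank 447 on chromosome 5 from 15383394 to 15383525. The polyubiquitin gene UBQ10 (AT4G05320) had 6553 reads (6395 to 6714) at rank 280 on chromosome 4 from 2719182 to 2719403, and UBQ11 (AT4G05050) 3707 reads in 46 bp at rank 577 from 2588343 to 2588389. Both ubiquitin genes and the RBCS genes have near-identical copies, so the place of their reads is uncertain. A region of 2291 reads on chromosome 3 from 17095618 to 17095738 was centred in AT3G46450, within 1 kb of UBC13 (AT3G46460), a ubiquitin-conjugating enzyme gene.

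Of the remaining 4, the 2914 bp region of chromosome 5 is described above. On chromosome 3 from 17135921 to 17136127, 5318 reads lay at AT3G46540, near SOS5 (AT3G46550), a cell-surface arabinogalactan protein gene. Chromosome 2 from 6919548 to 6919681 held 3806 reads at AT2G15880 and MEE14 (AT2G15890), and chromosome 1 from 15880403 to 15880547 held 1909 reads at rank 134, 10.8 kb from AT1G42430.

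12 lists of genes (clock, flowering, light signalling, photosynthesis, other metabolism, hormones, cold response and ubiquitin) held 81 genes inside the windows, of which 51 had a region in them or within 1 kb (63.0%, 51.5 to 73.4). For 42 of the 51 the false discovery rate was 5% or less, counting GA2OX4, whose region at that rate lay just outside the window. The share among all pericentromere coding genes was 22.8%, but the lists were drawn up with earlier results of these data known and 3 of them after the strongest regions had been seen, so nothing particular to the lists can be read from these shares. A listed gene said below to have none had no region in it or within 1 kb. Within 3 kb, FBH2, PHYC, CIP4, ABF2, TT8, GA3, NIR1 and NRT2.6 each had 1.

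**Figure D4:**
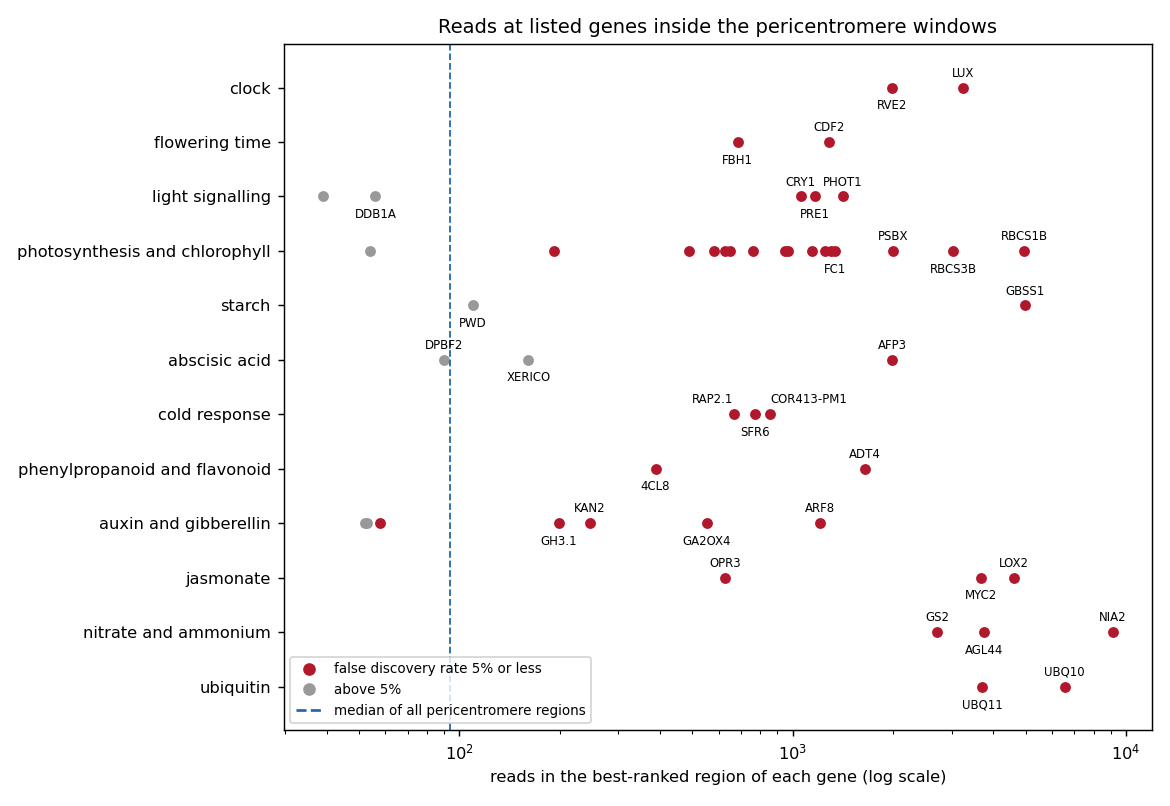
Reads in the best-ranked region (log scale) of each listed gene with a region, by list, in red where the false discovery rate was 5% or less and grey above it; names are given for up to 4 genes a list and the dashed line is the median of all pericentromere regions, 94 reads. Most points lie right of the line, and the grey points lie between 39 and 161 reads.

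The clock list had 2 members in the windows and the flowering list 6. Both clock members had a region, LUX as above and RVE2 (AT5G37260), a MYB-like factor related to CCA1, with 1991 reads in a region also near AT5G37250. Of 6 flowering genes 2 had one. CDF2, a Dof factor that represses CO, had 1290 reads and FBH1, a bHLH activator of CO, 684 reads. FBH2, ARP6, ELF8 and SEF had none.

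Light signalling genes had regions at 5 of 7 members, 3 of them at 5% or less. The blue light receptor genes PHOT1 and CRY1 had 1415 reads, spread over 941 bp, and 1058 reads, and the growth regulator PRE1 had 1168. DDB1A (56 reads, 8.37%) and PRE5 (39 reads, 36.4%) had weakly supported regions, and CIP4 and the phytochrome gene PHYC had none.

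The list of photosynthesis and chlorophyll genes was the longest, and 16 of its 23 members had a region, 15 of them at 5% or less. Rubisco small subunit genes led it, with 4964 reads at RBCS1B, 3033 at RBCS3B and 490 at RBCS2B. Photosystem and antenna genes followed, with 2004 reads at PSBX (also near RPA1A and VPS2.1), 1300 at LHCB2.1, 629 at its close copy LHCB2.2 and 581 at PSBQ-2. For protection and cyclic electron flow, PGR5 had 1142 reads and NPQ4, which encodes PsbS, 966. In tetrapyrrole synthesis, the ferrochelatase gene FC1 had 1337 reads (also near HDA2) and CAO, which makes chlorophyll b, 950 reads, while hemb2 had 54 reads at 31.7% (also near ILL6). GAPB of the Calvin cycle had 1254 reads, the Rubisco assembly gene RbcX1 763, the ATP synthase gene ATPD 648 (also near AT4G09649) and NdhT 193. Lhca5, OHP2, PRK, ACD1, ATPC1, CRR2 and CRR7 had none.

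Metabolic lists were split. GBSS1 was the strongest of 4 starch genes; PWD had 110 reads at 21.0%, and ISA3 and PHS1 had no region. In the phenylpropanoid list ADT4, which makes phenylalanine from arogenate, had 1648 reads and 4CL8 388, and the flavonoid regulators TT1, TT2 and TT8 and the chorismate mutase gene CM1 had none. In nitrate and ammonium use NIA2, AGL44 and GS2 (AT5G35630), the plastid glutamine synthetase, had 9149, 3764 and 2719 reads, that of GS2 also near AT5G35640. NIR1, NRT1.5 and NRT2.6, for the next reduction step and for nitrate transport, had none.

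Stress and hormone lists had both strong and weak members. In the cold list COR413-PM1 had 857 reads (also near AT2G15980), SFR6, a Mediator subunit, 773 and RAP2.1 665, and HOS10 had none. Of 5 abscisic acid genes only AFP3 had a region at 5% or less; XERICO had 161 reads at 64.5% and DPBF2 90 reads at 6.53%, and ABF2 and AAO2 had none. Of 4 jasmonate genes LOX2 and MYC2 stood above OPR3, the 12-oxophytodienoate reductase, with regions of 626 and 290 reads, and JAZ11 had none. In the auxin and gibberellin list 8 of 11 had a region, 5 of them at 5% or less, counting GA2OX4. The response factor ARF8 had 1207 reads, KAN2, a factor of organ polarity, 246, the auxin-conjugating enzyme gene GH3.1 199 and the gibberellin receptor GID1C 58, the last also near AT5G27330. GA2OX4, a gibberellin-inactivating enzyme gene, lies at the edge of the window on chromosome 1. Its best region, of 554 reads, lay 0.118 kb outside the window, and that inside held 83 reads at 25.8%. GASA2 and GASA3 shared a region of 53 reads at 10.4%, IAA28 had 52 reads at 50.4%, and GA3, GA20OX5 and ABCB19 had none.

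Among regions centred in pseudogenes, the one with the most reads, 1295, lay in AT2G15271 on chromosome 2 from 6639648 to 6639884 at rank 1209, and the coding genes AT2G15270 and AT2G15280 were within 1 kb. AT1G35115 had 917 reads at 0.191% on chromosome 1 from 12841910 to 12842440, and AT1G33160 had 899 on chromosome 1 from 12024788 to 12025117, within 1 kb of PGY2, a ribosomal protein gene. AT2G05040 had 714 reads at 0.527% over 1078 bp on chromosome 2 from 1782841 to 1783919. AT3G33067 had 395 at 4.62% on chromosome 3 from 13649942 to 13650517. These 5 lay far below the strongest regions of coding genes.

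The 6 longest regions were mixed in position. Besides both remote ones above they were 1400 bp at RABA2c (AT3G46830), a Rab GTPase gene, with 499 reads on chromosome 3 from 17247146 to 17248546, and 1325 bp at CLS (AT4G04870), the cardiolipin synthase gene of mitochondria, with 557 reads at 0.775% on chromosome 4 from 2462460 to 2463785. The remaining pair lay in pseudogenes of chromosome 2, AT2G05040 and AT2G05690, the second with 266 reads at 32.2% over 1064 bp from 2126446 to 2127510.

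Very short regions occurred in the windows as on the arms, with 7 and 53 below 60 bp. Besides UBQ11 (80.6 reads per bp) and the 36 bp region of chromosome 3, 45 bp at AT2G08986 on chromosome 2 from 3622962 to 3623007 held 2363 reads (52.5 per bp) and 16 bp at CAO (AT1G44446) on chromosome 1 from 16851137 to 16851153 held its 950 (59.4 per bp). The other 3 held 49 to 290 reads.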

How the data were processed

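ChIP and input DNA of 1 library each gave 1 list of 8983 regions. Per the file headers and the submitters' processing notes, positions are on TAIR9; for the aligner, the caller, their filters and the treatment of repeats, the answer is not given in the sources used here. The deposited list holds whole-number counts of reads per region, not normalised, whose library the file headers do not name, and the authors' false discovery rate in percent, from 0 to 100, used only to rank (ties by reads) or filter regions. Library totals are unknown; 5112270 reads lay in regions.

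Region midpoints were assigned to the windows. Arms were measured up to the last region or gene. Genes came from the RefSeq table of TAIR10.1, with all protein-coding genes counted on either strand and no coordinates printed. Their positions gave the names and neighbours of regions, the gene counts, and the amount of each kind of sequence behind the densities. As a check of the builds, pericentromere regions at 5% or less were moved by 2 to 50 kb either way. Unmoved, 72.7% of them lay in or within 1 kb of a coding gene, moved 52.9 to 64.2%, and no shift gave the highest share on each of the 5 chromosomes. Where classes overlapped, a centre counted first as in a coding gene, then in a pseudogene, then in another noncoding gene. Intervals are Clopper-Pearson for shares and exact Poisson for counts and densities; they treat reads as independent molecules, which PCR copies are not. Python 3.11.15 with numpy 2.4.6, pandas 2.3.3 and scipy 1.17.1 was used, and the counting was tested on simulated data.

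The windows, members and gene lists were chosen with earlier results of these data known. The genes named are those of the 12 regions ranked highest, the 12 with the most reads, the 6 longest, the 6 pseudogene regions with the most reads, and all list members in the windows. Of the pseudogene regions, 1 is not reported here. The lists were written anew under earlier names; jasmonate, nitrate and ammonium, and ubiquitin were added after the strongest regions were seen, and no B-box gene lay in the windows. Gap, remote, short and multiple-region examples were chosen after their values were seen. No sequence was printed, since none was at hand.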

Additional observations from a re-analysis of the deposited data

How the results depend on the processing

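Of 53 alternative values, 28 moved by less than the error of the value reported, 21 moved beyond it and 4 turned an order of pericentromeres and arms that lay beyond the error. The share longer than 500 bp, level at first (4.92% in the pericentromeres and 4.89% on the arms), also changed order in 2 of these alternatives. With only regions of a false discovery rate up to 5%, density was 16.7 per Mb in the pericentromeres and 59.8 on the arms, median reads 291 and 444.5, the share in a pseudogene 4.04% and 0.399%, and the share with no coding gene within 1 kb 27.3% and 21.7%; the order turned for median length (146 and 148 bp) and, by a narrow margin, for the share in a coding gene (52.7% and 52.6%), and the share longer than 500 bp was 4.42% and 5.58%. With only the 2245 regions ranked highest, density was 5.18 and 23.7 per Mb, median reads 966 and 1173, the share longer than 500 bp 1.86% and 4.41%, that in a pseudogene 1.24% and 0.336%, and that with no coding gene 21.7% and 21.6%; besides the share longer than 500 bp, the order turned for median length (138 and 144 bp) and the share in a coding gene (58.4% and 47.0%). Windows narrowed by 0.5 Mb at both ends gave 32.8 and 87.3 per Mb, 40.4% and 67.0% at 5% or less, 12.7% and 0.886% in a pseudogene and 41.9% and 23.0% with no coding gene. Widened windows gave 45.1 and 88.6 per Mb, 108 and 222 reads, 48.5% and 68.0%, 8.16% and 0.653%, and 34.4% and 22.7%. The share with no coding gene was 48.2% and 34.5% within 500 bp, 17.5% and 3.39% within 3 kb, and 19.8% and 17.8% when all annotated genes were counted. The causes were not tested. No regions overlapped, so merging changed nothing, and all of its values are among the 28. All values without the stretch of chromosome 2 from 3.2 to 3.6 Mb, which held 2 regions, are among the 28 too. Leaving out the 1% of pericentromere regions with the most reads, an alternative chosen after seeing the data, gave a median of 92 reads and 42.8% at 5% or less. Both are also among the 28. These alternatives could move a value only little, so the count of 28 is no measure of stability.

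No paired analysis was possible because there was 1 library per group and no test was made. The unknown library depth and the absence of input reads per region limit every read count here to a comparison within the list.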
